A study of Homo sapiens with 4 samples.

Results

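The 34 genes described here belong to the unfolded protein response and to protein folding in the endoplasmic reticulum (ER). They were chosen from a list by gene name and measured as the sum of all deposited transcript values of each gene, among 22031 genes with values. All 34 had values, and 33 passed the minimum mean value of 10 over the 4 libraries, as 16535 genes did in all. The list holds 12 chaperones and co-factors, 7 genes of oxidative folding, 2 of translocation, 10 of ER-associated degradation and 3 sensors or their factors. RNA came from U87, an established human glioblastoma cell line, 48 h after lipofection of 50 nM of an oligonucleotide. This was a mimic of tRF-3009a, which is a piece of a transfer RNA, in 2 libraries. It was siGL2 as a single strand, from an siRNA to firefly luciferase, in the 2 control libraries. All groups are therefore transfected cells of 1 line, and no untransfected cells were analysed here. Each group has a library numbered 1 and a library numbered 2, and the labels do not explain the number.

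Secretory and membrane proteins fold in the ER with the help of chaperones and of disulfide isomerases, and chains that fail to fold are pulled back to the cytosol and degraded by the proteasome. When unfolded chains build up, the membrane sensors IRE1 (ERN1), ATF6 and PERK (EIF2AK3) set off the unfolded protein response. IRE1 cuts the XBP1 messenger RNA so that it encodes an active transcription factor, ATF6 is cleaved to release another, and PERK slows translation and favours that of ATF4. Chaperone, degradation and translocation genes are well-known targets of these factors.

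The libraries held 33848402 and 33255642 recovered reads in mimic 1 and 2, and 30153387 and 28860788 in control 1 and 2. No label says whether libraries of the same treatment were grown as separate cultures, so p-values measure only the spread between these libraries, which may be technical. Libraries with the same treatment but different numbers differed by more than 2-fold at 3506 genes (mimic) and 3434 genes (control), against 634 genes between mimic 2 and control 2 and 741 between mimic 1 and control 1. The members were therefore compared along the treatment and along the number, and the second comparison was chosen with that difference known. Of the glioma and astrocyte markers, 8 of 9 had values, and S100B had no row. SOX2, NES, FABP7 and SLC1A3 had values that are not described here. VIM and CD44 were high, EGFR had a mean of 44.2 TPM (a value per transcript length, scaled to the same total in every library), and GFAP, which defines mature astrocytes, had a mean of 1.37 TPM. CDKN2A and MTAP, which are known to be deleted in this line, summed to 0.361 to 1.25 TPM per library.

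The spliced form of XBP1 was counted first, because its 26 nt gap is the product of IRE1 itself. The gap lies within the coding sequence at chr22:28796124-28796149 (GRCh38, minus strand), and its removal shifts the reading frame. In the following stretches of the annotated transcripts, capitals mark the bases that the spliced form lacks.
XBP1 unspliced: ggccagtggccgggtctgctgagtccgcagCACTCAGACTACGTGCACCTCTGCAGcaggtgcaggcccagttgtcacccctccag
XBP1 spliced: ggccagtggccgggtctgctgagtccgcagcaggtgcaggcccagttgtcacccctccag
The gap is drawn where the annotation places it, and moving it by up to 4 bases toward the 5′ end or 2 bases toward the 3′ end would give the same product.

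The spliced transcript XBP1-207 had normalized values of 1251 in mimic 2 and 1340 in control 2, and of 184 in mimic 1 and 127 in control 1. The main unspliced transcript XBP1-201 had 8459 in mimic 2 and 8795 in control 2, and 2305 in mimic 1 and 2396 in control 1. Both forms were thus higher in both number 2 libraries, and the spliced form by more. The spliced form made up 12.3% of all XBP1 values in mimic 2 (95% Wilson interval 11.7 to 12.9) and 12.7% in control 2 (12.0 to 13.3). It made up 6.70% in mimic 1 (5.88 to 7.66) and 4.65% in control 1 (3.91 to 5.53). The intervals cover counting error only, over 10733, 9443, 3039 and 2622 recovered XBP1 reads in that order of libraries, and not the splitting of reads between transcripts.

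Between numbers the mean spliced share was 12.5% ± 0.281 in number 2 and 5.67% ± 1.45 in number 1 (SD, n = 2 each), a difference of 6.78 percentage points. The two-sided exact permutation p was 0.333, which is the smallest that 2 against 2 libraries can give. On the log2 scale the spliced form was 3.08 higher in number 2 (8.44-fold) and the main unspliced form 1.88 higher (3.67-fold). Between treatments the mean share was 9.48% ± 3.93 in the mimic and 8.65% ± 5.66 in the control (SD, n = 2 each), a difference of 0.829 points with an exact permutation p of 1. The sign of this small difference was not shared by the numbers, since the share was below the control in mimic 2 and above it in mimic 1. Without mimic 2 the difference between treatments was -1.95 points and without control 1 it was -3.18 points, while without mimic 1 and without control 2 it was 3.61 and 4.83 points.

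**Figure D1:**
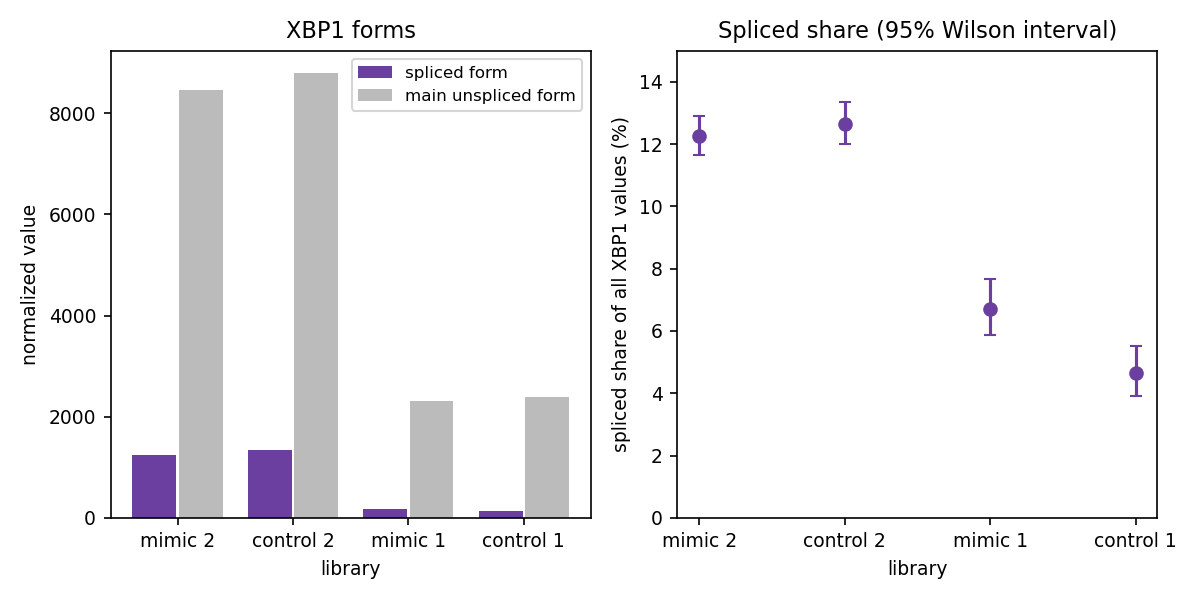
Left, normalized values of the spliced and the main unspliced form of XBP1 in each library as bars. Right, the spliced form as a percentage of all XBP1 values, with its 95% Wilson interval, which lies between 11.7% and 13.3% in the 2 number 2 libraries and between 3.91% and 7.66% in the 2 number 1 libraries.

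The study set the mimic against the control to learn which transcripts change when the fragment is present. No member differed between mimic and control in limma's test, in which 0 of 33 members and 0% of all 16535 genes passed at an adjusted p under 0.05. No member reached an unadjusted p under 0.05 either, and 26 genes did among all those tested. Members' log2 fold changes ran from -0.23 (SYVN1) to 0.17 (HSPA5) with a median of -0.0017, beside a median of -0.01 over all genes. The median of the 19 chaperone and oxidative folding genes exceeded that of the 12 tested degradation and sensor genes by 0.0001. In bulk RNA, fewer cells with a transcript and less of it per cell cannot be told apart, here and in what follows.

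In the sensor group, ERN1 had 1912 in mimic 2 and 342 in mimic 1, compared with 2149 in control 2 and 409 in control 1. It was below the control within both numbers, with differences of -0.17 in number 2 and -0.26 in number 1. The log2 fold change was -0.21 ± 1.19 (n = 2 per group, SE), far less than that error. The fit has no term for the number, so each SE of the mimic comparison also holds the difference between numbers. ATF6, the Golgi-cleaved membrane factor, had 3942 and 3068 in mimic 2 and 1, against 3815 and 2978 in control 2 and 1, a log2 fold change of 0.04 ± 0.25. XBP1 as a whole had 10203 and 2738 in mimic 2 and 1, against 10590 and 2728 in control 2 and 1, a log2 fold change of -0.02 ± 0.95. In each of the 3 the libraries lay in pairs by number, so the treatment groups overlapped.

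HSPA5 (BiP), the main ER chaperone of the HSP70 family, had 160298 and 47775 in mimic 2 and 1, against 137528 and 44268 in control 2 and 1, a log2 fold change of 0.17 ± 0.84. CANX (calnexin), a lectin chaperone of the membrane, had 2882 and 2584 in mimic 2 and 1, against 2815 and 2155 in control 2 and 1, a log2 fold change of 0.15 ± 0.24. Both were above the control within each number, by 0.22 and 0.11 for HSPA5 and by 0.03 and 0.26 for CANX in numbers 2 and 1. For CANX this held for the sum of all its transcripts. Its protein-coding transcripts had 1245 in mimic 2 and 1393 in control 2, against 1584 in mimic 1 and 1049 in control 1. The disulfide isomerase gene P4HB had 27412 and 28884 in mimic 2 and 1, against 29906 and 34007 in control 2 and 1, a log2 fold change of -0.18 ± 0.20. PDIA3, which works with calnexin and calreticulin, had 13647 and 17794 in mimic 2 and 1, against 14611 and 18388 in control 2 and 1, a log2 fold change of -0.07 ± 0.25. These genes were below the control within both numbers, by less than the difference between numbers in the case of PDIA3.

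SEC61B, a subunit of the channel through which chains enter the ER, had 4117 and 2691 in mimic 2 and 1, against 4429 and 3069 in control 2 and 1, a log2 fold change of -0.15 ± 0.33. SSR1, a subunit of the complex that sits beside that channel, had 3590 and 4292 in mimic 2 and 1, against 3735 and 4115 in control 2 and 1, a log2 fold change of 0.0018. The sign of the SSR1 value turned with the scaling, to -6.1e-05 with trimmed mean scaling and to -0.0091 with DESeq2's size factors. SYVN1 (HRD1), the ubiquitin ligase of ER-associated degradation, had 1413 and 1026 in mimic 2 and 1, against 1487 and 1333 in control 2 and 1, a log2 fold change of -0.23 ± 0.26. EDEM2, which acts on mannose of misfolded glycoproteins, had 1521 and 1987 in mimic 2 and 1, against 1488 and 2310 in control 2 and 1, a log2 fold change of -0.09 ± 0.32. The low SYVN1 value rested mostly on mimic 1, with -0.38 within number 1 and -0.07 within number 2.

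Within the numbers, 7 members were higher in the mimic in both, 8 were lower in both, and 18 had opposite signs. The same split over all genes was not counted. The largest difference of a member was 0.38 within number 1 and 0.22 within number 2, in either direction. With the replicate number as a block limma called 0 members, with a smallest adjusted p of 0.776, while 0.708% of all genes passed. Without mimic 1 or without control 2 the signs of ERN1 and XBP1 turned, to between 0.92 and 1.03, because the groups then no longer hold the same numbers. HSPA5 likewise came to -0.71 without mimic 2 and -0.65 without control 1.

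**Figure D2:**
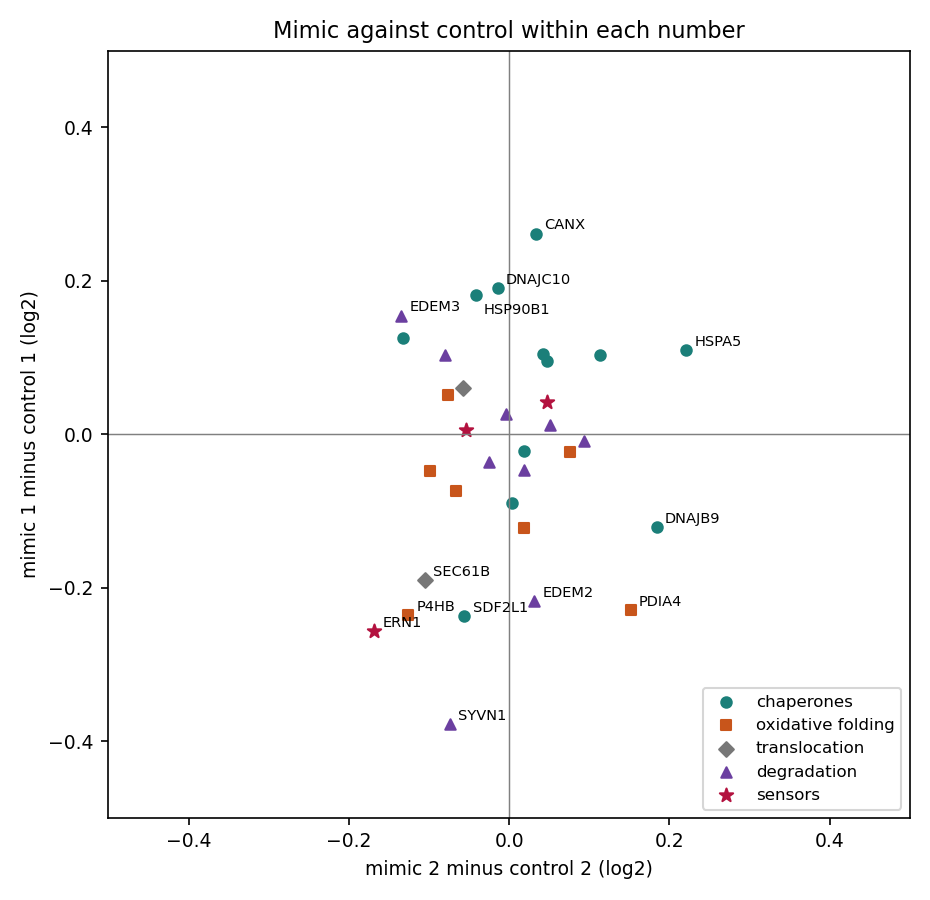
Log2 difference of mimic 2 minus control 2 (horizontal) and of mimic 1 minus control 1 (vertical) for the 33 tested members, with symbols for the role groups and names where a difference exceeds 0.15 in either direction. Points scatter around 0 in both directions, with 18 members of opposite signs, and SYVN1 lies farthest out at -0.38 within number 1.

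Between numbers most members differed, and they did so in both directions. Each number holds 1 mimic and 1 control library, so SE and p-values of this comparison measure the spread between those libraries. They do not measure repeats of whatever the number stands for, which the labels do not explain. Of 33 tested members, 15 were higher in number 2 (background 26% of all genes tested), 10 were lower (24.2%) and 8 did not pass. Passing in either direction were 25 members, beside 50.2% of all genes, so a difference between numbers is common in this table. Over 2-fold and called were 7 members on the higher side (8.19% of all genes) and 1, CRELD2, on the lower side (8.5%). The median log2 difference of the members was 0.13, and that of all genes 0.01. All 33 had the same sign in mimic and in control libraries, and the largest gap between those differences was 0.38. The share of all genes with the same sign was not counted. Deviations of libraries with the same number had r = 0.745 across genes, so shared signs are no result about the members.

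Cell type markers also moved with the number. The glioma and astrocyte markers summed to 4489 to 4643 TPM in number 2 and 9606 to 10122 TPM in number 1, carried largely by VIM, a gene for an intermediate filament. Neuron markers summed to 52.4 to 53.5 TPM in number 2 and 38.5 to 39.1 TPM in number 1 (4 of 5 with values, RBFOX3 without a row). Epithelial markers came to 6.19 to 6.24 TPM in number 2 and 2.62 to 2.66 TPM in number 1 (3 of 4, KRT19 without a row). Endothelial markers came to 0.712 to 0.777 TPM in number 2 and 2.35 to 3.14 TPM in number 1 (4 of 4). Oligodendrocyte markers were at 0.505 to 1.07 TPM in number 2 and 0.156 to 0.277 TPM in number 1 (2 of 4, MOG and MAG without a row). Immune markers summed to 256 to 294 TPM in number 2 and 283 to 368 TPM in number 1 (2 of 4, AIF1 and CD3E without a row), nearly all from CD68, with the leukocyte gene PTPRC at a mean of 0.154 TPM. The part of cell state or of other cells in the members' differences was not tested.

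**Figure D3:**
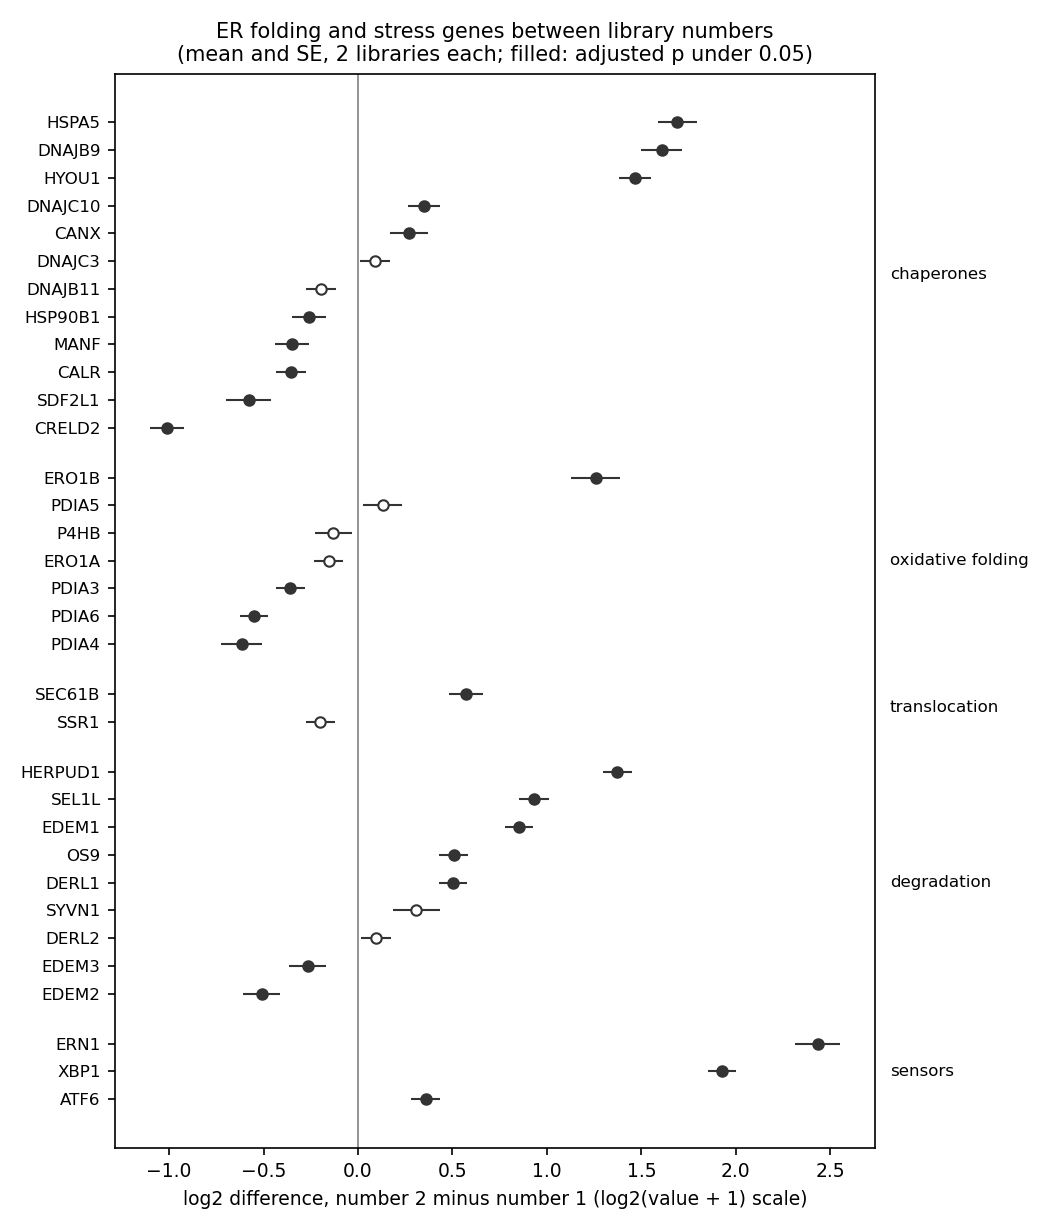
Log2 difference between number 2 and number 1 with its SE for the 33 tested members, on the log2(value + 1) scale and grouped by role. Filled points passed at an adjusted p under 0.05. ERN1 and XBP1 of the sensor group lie farthest to the right at 2.43 and 1.93, and CRELD2 farthest to the left at -1.01.

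All 3 genes of the sensor group rose in number 2, beside 26% higher and 24.2% lower among all genes, and their median was 1.93. They are the sensors ERN1 and ATF6 and the factor XBP1, whose RNA IRE1 cuts. EIF2AK3, the gene for the sensor PERK, was not among the members and did not pass (0.01). That value averages opposite differences, of 0.47 within the mimic and -0.46 within the control. ERN1 (chromosome 17, 64039142 to 64130819, GRCh38 here and below) had 1912 and 2149 in mimic 2 and control 2, against 342 and 409 in mimic 1 and control 1. Its difference was the largest of the members at 2.43 ± 0.12 (SE, n = 2 per number), or 5.40-fold, with an adjusted p of 7.31e-07 in limma. XBP1 (chromosome 22, 28794555 to 28800597) had 10203 and 10590 in number 2, compared with 2738 and 2728 in number 1. Its rise was 1.93 ± 0.07, or 3.80-fold, with a limma adjusted p of 2.10e-07, and both forms of its transcript took part as described above. ATF6 (chromosome 1, 161766294 to 161964070) had 3942 and 3815 in number 2, compared with 3068 and 2978 in number 1. It rose by 0.36 ± 0.08, or 1.28-fold (limma, adjusted p = 0.00383), a much smaller change than those of the other two. This call was lost without mimic 2 (limma, adjusted p = 0.0752) and without control 2 (0.0503), with values of 0.34 and 0.38.

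Of the 12 chaperones, 5 were higher, 5 were lower and 2 did not pass, beside 26% higher and 24.2% lower among all genes, and their median was -0.05. HSPA5 (chromosome 9, 125234853 to 125241330) had 160298 and 137528 in mimic 2 and control 2, against 47775 and 44268 in mimic 1 and control 1. It rose 3.23-fold, by 1.69 ± 0.10 (limma, adjusted p = 2.63e-06). Beside it rose 2 genes that act on BiP. DNAJB9 (ERdj4), a J-domain co-chaperone, had 1611 and 1418 in number 2, compared with 475 and 516 in number 1, a difference of 1.61 ± 0.11 (limma, adjusted p = 4.42e-06). HYOU1, an HSP70-related nucleotide exchange factor of BiP, had 4151 and 3838 in number 2, compared with 1496 and 1393 in number 1, a difference of 1.47 ± 0.09 (limma, adjusted p = 2.04e-06). Groups did not overlap in any of the 3. The share of all genes without such an overlap was not counted, so here and below its absence is no result about the members.

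On the other side, CRELD2, a secreted ER stress-induced protein, fell 2.02-fold. It had 737 and 727 in number 2, compared with 1466 and 1489 in number 1, a difference of -1.01 ± 0.09 (limma, adjusted p = 2.37e-05). SDF2L1, a co-factor of the J-domain protein DNAJB11, had 481 and 500 in number 2, compared with 675 and 796 in number 1, a difference of -0.58 ± 0.12 (limma, adjusted p = 0.00316). Both genes were lower in number 2 within the mimic and within the control, opposite to HSPA5, although all are known targets of the response. The lectin chaperone CALR (calreticulin) fell by 0.35, the secreted stress protein MANF fell by 0.35, and the HSP90 family chaperone HSP90B1 (GRP94) fell by 0.26. The J-domain reductase DNAJC10 rose by 0.35 and CANX rose by 0.27. In CANX the transcripts annotated for nonsense-mediated decay had 1622 and 1412 in number 2, compared with 986 and 1098 in number 1. Its protein-coding transcripts had 1245 and 1393 in number 2, compared with 1584 and 1049 in number 1, so those overlapped between numbers. The J-domain proteins DNAJC3 (0.09) and DNAJB11 (-0.20) did not pass.

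Calls of the smaller chaperone differences changed when a library was left out. Without mimic 2, the calls of HSP90B1 (-0.24), DNAJC10 (0.36), CALR (-0.36), CANX (0.25), SDF2L1 (-0.55) and MANF (-0.28) were lost, at adjusted p from 0.0526 to 0.276. Without control 2, those of HSP90B1 (-0.28), DNAJC10 (0.34), CALR (-0.35), CANX (0.29) and MANF (-0.42) were lost, at 0.0514 to 0.205. HSP90B1 was also lost without mimic 1 (-0.17), CANX without control 1 (0.14), and DNAJB11 was called without control 1 (-0.24). No call among HSPA5, DNAJB9, HYOU1 and CRELD2 was lost with any 1 library left out.

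Promoters of 31 of the 34 members were found in RefSeq (GRCh38.p14), each from 250 bases before to 50 bases after an annotated start. The ER stress element was searched as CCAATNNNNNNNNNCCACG and its second form as ATTGGNCCACG, on both strands, and no member held both. The first form lay in 8 of the 31 (25.8%), against 0.0916% of 27305 genes, and the second in 3 (9.68%), against 0.0696% of genes. The members were listed as genes of this response, so their higher shares are no independent result. The 8 were HSPA5, HSP90B1, PDIA6, CALR, CANX, CRELD2, ERO1B and XBP1, of which 4 rose and 4 fell in number 2. The 3 were HYOU1, HERPUD1 and SDF2L1, of which the first 2 rose and the last fell. A match is a description of letters, and a missing match says nothing about a factor. Promoter stretches of 4 genes that rose more than 2-fold and of 4 that fell are shown because members with the same element went opposite ways. Each is written 5′ to 3′ on the strand of the gene, and capitals mark the matches.
HSPA5, chr9:125241361-125241439, minus strand: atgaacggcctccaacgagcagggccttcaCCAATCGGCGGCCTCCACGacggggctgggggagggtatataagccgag
XBP1, chr22:28800573-28800651, minus strand: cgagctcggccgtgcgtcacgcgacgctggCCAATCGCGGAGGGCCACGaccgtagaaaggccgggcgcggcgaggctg
HYOU1, chr11:119057244-119057423, minus strand: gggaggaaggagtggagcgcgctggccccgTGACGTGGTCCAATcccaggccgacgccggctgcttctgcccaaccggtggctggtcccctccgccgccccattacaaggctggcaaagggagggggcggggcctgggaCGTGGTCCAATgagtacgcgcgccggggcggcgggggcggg
HERPUD1, chr16:56931936-56932065, plus strand: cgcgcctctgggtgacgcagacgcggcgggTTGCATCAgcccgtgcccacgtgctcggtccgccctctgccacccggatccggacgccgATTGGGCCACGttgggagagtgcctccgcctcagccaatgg
CRELD2, chr22:49918524-49918602, plus strand: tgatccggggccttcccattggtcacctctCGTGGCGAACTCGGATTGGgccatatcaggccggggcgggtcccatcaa
PDIA6, chr2:10812823-10812901, minus strand: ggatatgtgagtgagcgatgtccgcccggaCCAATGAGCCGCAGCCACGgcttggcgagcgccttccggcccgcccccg
CALR, chr19:12938359-12938432, plus strand: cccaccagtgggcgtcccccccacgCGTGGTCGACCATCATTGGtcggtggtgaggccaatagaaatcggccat
SDF2L1, chr22:21642084-21642154, plus strand: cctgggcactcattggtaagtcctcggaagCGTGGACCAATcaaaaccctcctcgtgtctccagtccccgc

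In HSPA5 the match ran from 66 to 48 bases before the start and in XBP1 from 52 to 34. In CRELD2, CALR, HYOU1 and SDF2L1 it lay on the opposite strand, and HYOU1 held 2 matches. The UPR element core TGACGTG was found in DNAJC10 and HYOU1, against 2.40% of genes, and in HYOU1 it overlaps the upstream match of the second form. The amino acid response core TGATGNAA was found in HERPUD1, against 4.46% of genes, on the opposite strand.

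Of the 7 genes of oxidative folding, 1 was higher, 3 were lower and 3 did not pass, beside 26% higher and 24.2% lower among all genes, and their median was -0.16. The one that rose was ERO1B, an oxidase that feeds disulfides to the isomerases. It had 500 and 474 in mimic 2 and control 2, against 201 and 205 in mimic 1 and control 1, a difference of 1.26 ± 0.13 (2.39-fold, limma, adjusted p = 5.42e-05). Its paralog ERO1A had 5721 and 5992 in number 2, compared with 6357 and 6693 in number 1, a difference of -0.16 ± 0.08 that did not pass (limma, adjusted p = 0.120). Neither oxidase had libraries that overlapped between numbers, and their differences had opposite signs.

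The isomerase PDIA4 had 1016 and 914 in number 2, compared with 1363 and 1598 in number 1, a difference of -0.61 ± 0.11 (limma, adjusted p = 0.00140). PDIA6, an isomerase known to bind IRE1 and BiP, had 8215 and 8662 in number 2, compared with 12584 and 12141 in number 1, a difference of -0.55 ± 0.08 (limma, adjusted p = 0.000312). PDIA3 had 13647 and 14611 in number 2, compared with 17794 and 18388 in number 1, a difference of -0.36 ± 0.08 (limma, adjusted p = 0.00430). In these 3 isomerases every number 2 library lay below both number 1 libraries. The PDIA3 call was lost without mimic 2 (-0.31, limma, adjusted p = 0.108), and the isomerases P4HB (-0.13) and PDIA5 (0.13) did not pass. P4HB was called without mimic 1 (-0.25). Where only transcripts of the annotation's own version were summed, PDIA4 was at 0.49, P4HB at 0.27, ERO1A at 0.085 and HSP90B1 at 0.071, because the leading transcript of each, with 96.6%, 91.7%, 80.9% and 97.3% of its gene's values, then dropped out.

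In translocation SEC61B rose and SSR1 did not pass. SEC61B had 4117 and 4429 in mimic 2 and control 2, against 2691 and 3069 in mimic 1 and control 1, a difference of 0.57 ± 0.09 (limma, adjusted p = 0.000736). SSR1 had 3590 and 3735 in number 2, compared with 4292 and 4115 in number 1, a difference of -0.20 ± 0.08 (limma, adjusted p = 0.0568). Its libraries did not overlap between numbers either, and without control 1 it was called (-0.23).

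Of the 9 degradation genes tested, 5 were higher, 2 were lower and 2 did not pass, beside 26% higher and 24.2% lower among all genes, and their median was 0.50. HERPUD1, a membrane protein that organises the degradation complex, had 6257 and 6174 in mimic 2 and control 2, against 2361 and 2438 in mimic 1 and control 1. It rose 2.59-fold, by 1.37 ± 0.08 (limma, adjusted p = 1.41e-06). SEL1L, the adaptor of the ligase SYVN1, had 14877 and 15728 in number 2, compared with 8307 and 7730 in number 1, a difference of 0.93 ± 0.08 (limma, adjusted p = 1.72e-05). EDEM1, which helps to extract misfolded glycoproteins, had 7143 and 7162 in number 2, compared with 3994 and 3922 in number 1, a difference of 0.85 ± 0.07 (limma, adjusted p = 1.87e-05). The lectin OS9, which delivers such substrates to SEL1L, had 6195 and 5804 in number 2, compared with 4208 and 4232 in number 1, a difference of 0.51 ± 0.08 (limma, adjusted p = 0.000541). DERL1, a derlin of the retrotranslocation channel, rose by 0.50.

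The paralogs of EDEM1 went the other way. EDEM2 had 1521 and 1488 in number 2, compared with 1987 and 2310 in number 1, a difference of -0.51 ± 0.10 (limma, adjusted p = 0.00201). EDEM3 fell by 0.27 with a limma adjusted p of 0.0472, and this call was lost without mimic 2 (-0.20), without control 2 (-0.33) and without mimic 1 (-0.19). SYVN1 was 0.31 higher and DERL2 0.10 higher, and neither passed, although SYVN1 was called without control 1 (0.50). DERL3, a derlin of secretory tissues, was listed at 0 in mimic 2, had 7.84 in control 2 and had 4.50 and 7.27 in mimic 1 and control 1. Its only transcript with values, DERL3-201, is annotated with a retained intron. The mean of DERL3 was below the minimum of 10, so it was not tested.

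Chaperones and oxidative folding genes were set against degradation and sensor genes. The 19 folding genes had 6 higher, 8 lower and 5 not past the test, with a median of -0.16, and the 12 tested degradation and sensor genes had 8 higher, 2 lower and 2 not past the test, with a median of 0.51. Among all genes tested 26% were higher and 24.2% lower, with a median of 0.01. The medians differed by -0.66, and by -0.71 to -0.61 with 1 library left out, but by -0.25 where only transcripts of the annotation's own version were summed. Both groups held genes that went each way, and no test was run on the medians. The count of members was lowest with a number 2 library left out, with 16 without mimic 2 and 18 without control 2, beside 24 without mimic 1 and 27 without control 1. Over all genes, 5163 passed without mimic 2 and 5430 without control 2, against 8301 with all 4 libraries.

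Other genes of the pathway were listed with earlier results known, so their counts are descriptions. Of 12 genes listed as the PERK arm and its targets, 11 were higher in number 2 and none lower, beside 26% higher and 24.2% lower among all genes tested. Their median was 2.99, and EIF2AK3, the gene for PERK itself, was the one that did not pass (0.01, with opposite signs in mimic and control). Many of the others are also known targets of ATF4 downstream of other eIF2 kinases, and these sources cannot be told apart here. NUPR1, a small stress-induced chromatin factor, had 9608 and 9150 in mimic 2 and control 2, against 883 in each of mimic 1 and control 1, a difference of 3.41 ± 0.08 (limma, adjusted p = 2.77e-08). ATF3, a repressor downstream of ATF4, was 3.98 higher, and SESN2 (sestrin 2), which restrains mTORC1, was 3.29 higher. ATF4 itself was 1.31 higher and DDIT3 (CHOP) 2.69 higher. ERN1, the member with the largest difference at 2.43, was below the median of this list.

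In the other lists, the shares called were near or below those of all genes tested (26% higher, 24.2% lower), so their counts are no result about the lists. Of 12 other sensors, proteases and regulators with values, 4 were higher and 3 lower (median 0.12), with the membrane factor gene CREB3 at -1.06, RTCB, which encodes the ligase that joins the cut XBP1 ends, at -0.53 and TMBIM6 at 0.54. Of 26 other isomerases and folding enzymes with values, 8 were higher and 5 lower (median 0.07), with the chaperone gene CLGN at 1.30, the membrane thioredoxin gene TMX1 at -1.07 and ERP29 at 0.87. Of 22 genes of the translocon, signal peptidase and oligosaccharyltransferase, 4 were higher and 2 lower (median 0.12), with SEC63 at 1.01, SEC11C at 0.56 and SEC11A at -0.44. RTCB fell where ERN1 and XBP1 rose. Of 20 other degradation genes, 5 were higher and 4 lower (median 0.04), with UFD1 at -0.72, HERPUD2 at 0.74 and SELENOS at 0.57. Of 16 genes of the COPII coat and cargo receptors, 4 were higher and 4 lower (median 0.01), with the KDEL receptor gene KDELR3 at -1.57, SEC16A at 0.53 and SEC24A at 0.39. None of these 6 lists had a gene past limma's test between mimic and control.

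Levels per transcript length spanned several orders of magnitude among the members. HSPA5 averaged 1541 ± 934 TPM (SD over 4 libraries), CALR 1342 ± 214, HSP90B1 921 ± 122, P4HB 753 ± 62.9 and PDIA3 505 ± 82.6 TPM. The ranges of HSPA5 and CALR overlapped, because HSPA5 came to 2538 and 2135 TPM in mimic 2 and control 2, against 789 and 702 TPM in mimic 1 and control 1. In number 1 CALR, at 1510 and 1543 TPM, stood above HSPA5. At the low end EDEM3 averaged 14.0 ± 1.88 TPM, ERN1 11.2 ± 8.10, ERO1B 4.67 ± 2.16 and DERL3 0.0863 ± 0.0621 TPM. The DERL3 level comes from a transcript annotated with a retained intron alone. ERN1 had 17.3 and 19.0 TPM in mimic 2 and control 2, against 4.09 and 4.25 TPM in mimic 1 and control 1. The sensor gene thus had the largest difference between numbers from one of the lowest levels.

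**Figure D4:**
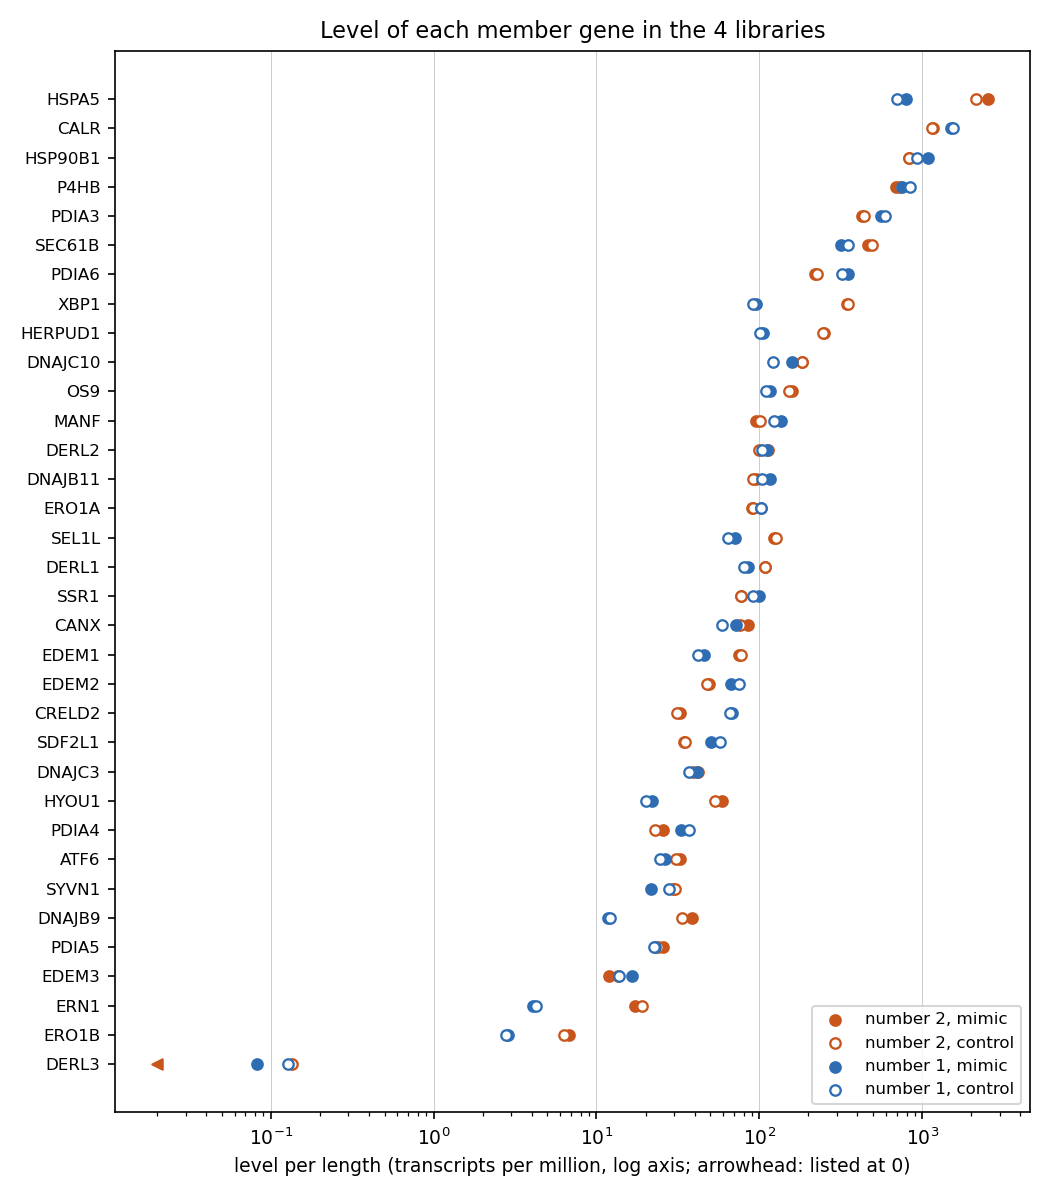
Level of each member in TPM (log axis) in the 4 libraries, ordered by the mean, with filled circles for the mimic and open circles for the control, and an arrowhead where DERL3 was listed at 0. Within a number the mimic and control points lie close together, while the numbers stand apart for HSPA5, XBP1, HERPUD1, HYOU1, DNAJB9, ERN1 and ERO1B, which are higher in number 2, and for CRELD2, which is lower.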

How the data were processed

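Per the labels' protocols, directional libraries of poly(A)-selected RNA were sequenced as pairs. Tools in the submitters' processing notes are kallisto and DESeq2, and the build is hg38. Versions and the annotation release are not given in the sources used here. The deposited signal is, as far as the values show, the authors' estimated reads per Ensembl transcript divided by a size factor for each library. In the low values, 95.6% to 99.7% were whole multiples of a fixed step within 0.1, so whole reads could be recovered for DESeq2 and edgeR. No read sum of a transcript row was below 10.

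Of 100809 transcripts, 90643 (89.9%) matched GENCODE 29 (GRCh38) on the identifier without its version, including 79288 whose version was also equal, and values were summed per gene. Unmatched transcripts, with 3.25% to 3.56% of values, were left out. Use of strand in counting is not stated, so antisense partners cannot be told apart. Values were tested as log2(value + 1) with limma and a trend, two-sided, for genes with a mean of at least 10, with Benjamini-Hochberg adjustment over all genes at 0.05. Fold changes on this scale understate those of low genes. TPM used annotated transcript lengths. Members, lists and the comparison of numbers were chosen with earlier results of these data known.

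Every tested member is named with its difference between numbers, and DERL3 with its values. Library values are given for the sensor group, the translocation genes and the 5 members of each other role group with the largest differences. In the mimic comparison they are given for the sensor group and 2 members of each role group. Of each other list the 3 genes with the smallest p are named, and any further gene was picked with its values known. The fits were also run on simulated data with known changes, and the outcome is not given here. Alternatives were other pseudocounts (0.5 and 8), filters (none and 50) and scalings, edgeR and DESeq2, same-version transcripts, a replicate block or treatment term, other members, lengths and XBP1 denominators, and each library left out. Fits ran in R 4.3.3 (DESeq2 1.42.0, limma 3.58.1, edgeR 4.0.16). Sums and figures ran in Python 3.11.15 (matplotlib 3.10.9, scipy 1.17.1, pandas 2.3.3, numpy 2.4.6).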

Additional observations from a re-analysis of the deposited data

How the results depend on the processing

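Between mimic and control, 0 members passed in any fit run. On the recovered reads edgeR and DESeq2 called 0 genes, with 35 and 23 at an unadjusted p under 0.05. With a replicate block limma called 117 genes, edgeR 91 and DESeq2 5. Deviations of libraries with the same number had r = 0.745 across genes, while no label makes them pairs. Leaving out 1 library unbalances the numbers between treatments, and fold changes then ran from -0.71 to 1.04 for HSPA5, -0.045 to 0.34 for CANX, -0.26 to 0.12 for PDIA3, -0.45 to 0.16 for SEC61B, -0.13 to 0.13 for SSR1, -0.46 to 0.0049 for SYVN1, -0.41 to 0.22 for EDEM2, -1.45 to 1.03 for ERN1, -0.14 to 0.23 for ATF6 and -1.002 to 0.95 for XBP1. The difference of the folding and degradation medians ran from -0.389 to 0.416, and that of the XBP1 spliced share from -3.18 to 4.83 points. SSR1 turned to -6.1e-05 and -0.0091 under 2 scalings, and ERN1 to 0.037 with same-version transcripts.

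Between numbers, same-version transcripts gave 3965 of 14671 genes in place of 8301 of 16535, and a difference of medians of -0.252. Of 29 tested members 12 were called, 11 of them in the same direction as with all matched transcripts. HSP90B1 (0.071), PDIA4 (0.49), P4HB (0.27) and ERO1A (0.085) then reversed, since that sum drops transcripts. With 1 library left out the genes called ran from 5163 to 7942. CANX was lost without a filter, with upper quartile scaling, with edgeR and with DESeq2, and EDEM3 without a filter, with DESeq2's size factors and with DESeq2. SSR1 was gained with a mean of at least 50 and with upper quartile scaling, and SYVN1 with a treatment term. With effective lengths 11 of 34 levels moved by more than their SD.

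With 2 libraries per group, exact tests cannot fall below 0.333. DERL3 was below the minimum mean and was not tested.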

Other observations

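The members' 218 transcripts showed patterns that the gene sums hide. In 21 members 1 transcript held over 90% of the gene's values. In PDIA3, transcripts annotated for nonsense-mediated decay held 80.3% of the mean value, and in CANX they held 49.0%. For HERPUD1 the leading transcript HERPUD1-201 had 3512 and 3968 in mimic 2 and control 2, against 927 and 1355 in mimic 1 and control 1. HYOU1-217 had 161 and 185 in mimic 2 and control 2, against 0.899 and 16.6 in mimic 1 and control 1, beside a leading HYOU1-220 with 95.2% of the gene's values. EDEM3-202 had 5.74 in mimic 2 and 447 in control 2, against 298 in mimic 1 and 504 in control 1, so it was low in mimic 2 alone, and the EDEM3 sum moved far less. EDEM3-201 held 94.2% of the gene's values in mimic 2 and 57.9% in control 2, against 77.1% in mimic 1 and 64.4% in control 1. Transcript values depend on how reads shared by transcripts of a gene were split, which was not tested. The transcripts named here were chosen after their values were seen and were not tested.

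Pseudogenes that share sequence with members had low values. PDIA3P1 had 292 and 312 in mimic 2 and control 2, against 224 and 203 in mimic 1 and control 1, HSP90B2P stayed between 5.20 and 14.6, and HSPA5P1 did not exceed 8.59. The gene sums of PDIA3 itself were 13647 and 14611 in mimic 2 and control 2, compared with 17794 and 18388 in mimic 1 and control 1.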
